A study of Ciona robusta with 6 samples.

Results

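Sorted cells of the bipolar tail neuron (BTN) lineage, taken from embryos of the tunicate Ciona robusta, were compared between embryos that expressed a repressor form of the transcription factor Neurog and embryos that expressed lacZ in its place. In *Neurog* > *Neurog:WRPW*, Neurog was fused to the peptide WRPW, and in *Neurog* > *lacZ* a bacterial enzyme without a role in the embryo stood in as control. Both were driven by *Neurog* regulatory DNA that is active in the BTN lineage, and all groups also carried a tagRFP/tagBFP reporter under that DNA, by which cells were sorted at 9.5 hpf and 20°C. The comparison rests on 4 of the 6 RNA-seq libraries of the series, 2 of Neurog:WRPW and 2 of lacZ. The 2 libraries of *Neurog* > *Neurog*, which expresses the unmodified factor, entered only the estimate of the spread and the scaling of the libraries. Members were all gene models over 1 CPM (counts scaled to the size of the library) in at least 2 of these 4 libraries, which were 11822 of the 15232 in the table. Each library came from pooled, electroporated embryos, in which plasmids reach only part of the cells of an embryo, and no cells were sorted out by a second reporter. The lacZ cells are a mixed lineage: most of it becomes epidermis, and only a few cells of each embryo become BTNs.

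Neurog is a proneural basic helix-loop-helix factor. Such factors bind E-box DNA through the basic region and switch on genes that turn an ectodermal cell into a neuron. WRPW is the last stretch of the Hairy/Enhancer of split repressors, where it recruits the corepressor Groucho/TLE, so that a fusion to it turns an activator into a repressor of the genes it binds. BTNs delaminate from the tail midline, migrate along it and put out a process to the front and one to the back, and have been compared with the neurons of vertebrate dorsal root ganglia.

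The following exon of *Neurog* (KH.C6.129), of 197 bases, is shown because its basic region is the part that reaches DNA. It is a coding exon as marked in the study's supplementary sequences, and no source used here gives its genome coordinates. Capitals mark the codons of the core of the basic region.
Neurog: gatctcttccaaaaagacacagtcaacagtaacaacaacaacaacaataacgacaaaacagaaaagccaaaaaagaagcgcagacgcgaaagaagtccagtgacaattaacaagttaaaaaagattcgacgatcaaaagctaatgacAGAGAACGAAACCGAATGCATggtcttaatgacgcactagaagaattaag

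The templates of 3 in situ probes are shown next, since they identify genes described below as lower: a kinesin, an activator of a neuronal kinase and a zinc finger factor. Each is the first 210 bases of the template as the study lists it and is open in at least 1 reading frame over its whole length. Capitals mark a start codon in such a frame at or near the beginning of the stretch, and none is marked for Kif26.
Kif26: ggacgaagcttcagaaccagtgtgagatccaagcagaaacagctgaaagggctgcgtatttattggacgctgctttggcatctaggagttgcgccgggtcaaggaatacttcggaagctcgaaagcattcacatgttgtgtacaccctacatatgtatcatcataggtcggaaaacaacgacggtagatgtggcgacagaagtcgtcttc
Cdk5r: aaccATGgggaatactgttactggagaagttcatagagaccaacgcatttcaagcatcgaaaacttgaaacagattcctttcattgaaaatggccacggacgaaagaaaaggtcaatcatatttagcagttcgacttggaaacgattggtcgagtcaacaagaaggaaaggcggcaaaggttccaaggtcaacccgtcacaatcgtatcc
Insm: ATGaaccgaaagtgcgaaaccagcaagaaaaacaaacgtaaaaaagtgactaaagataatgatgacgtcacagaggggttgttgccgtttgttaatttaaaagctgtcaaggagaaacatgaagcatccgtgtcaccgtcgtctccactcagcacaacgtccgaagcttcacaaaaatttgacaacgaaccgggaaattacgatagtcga

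The libraries differed in depth and in content. The Neurog:WRPW libraries held 19565263 counts in replicate 1 and 10315548 in replicate 2, and the lacZ libraries 16988929 and 24499397. A count was found for 14497 and 13009 gene models in the Neurog:WRPW libraries, against 14468 and 14457 in the lacZ libraries, so that replicate 2 of Neurog:WRPW held the fewest. By the study's methods, the second replicate of Neurog:WRPW came from far fewer sorted cells than the first, and the fewest of all libraries, and the second replicate of lacZ also came from fewer than the first. The gene model of *Neurog* was at 108.7 and 189.7 CPM in the Neurog:WRPW libraries, against 90.0 and 133.6 CPM in the lacZ libraries. In the *Neurog* > *Neurog* libraries it was at 3963 and 3996 CPM. The study set this gene aside in a comparison because of reads from the electroporated plasmids, and names no group for this. The driver carried by all groups, as the study lists it, runs past the start codon of *Neurog*. Reads of plasmids may thus be counted here in every group. The Neurog:WRPW and lacZ groups overlapped (LogFC 0.42, SE 0.35, and -0.04 without Neurog:WRPW replicate 2). By this gene the libraries labelled Neurog:WRPW were not told apart from lacZ, and no source used here gives how much of Neurog the fusion holds. The libraries are named by their labels below. The BTN marker *Asic* (KH.C1.215), an acid-sensing sodium channel, was at 14.5 and 1.33 CPM in the Neurog:WRPW libraries, against 73.6 and 44.6 CPM in the lacZ libraries. Its LogFC was -2.86 (SE 0.99), and -2.44 without lacZ replicate 1, where it no longer passed the thresholds given next.

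The question was which genes of the lineage are lower when Neurog is made a repressor. Such a form may also lower genes that do not need Neurog, so that need was not tested. The study treats it as distinct from true loss of *Neurog*, for which it used CRISPR. A gene is called lower where its LogFC, the log2 ratio of Neurog:WRPW over lacZ, was under -0.6 with an unadjusted p under 0.05 in edgeR's quasi-likelihood test, the thresholds of the study, and higher where the LogFC was over 0.6 at the same p. By these, 139 gene models (1.18%) fell and 36 (0.305%) rose. No gene passed an adjusted p of 0.05 in the quasi-likelihood test, where the smallest adjusted p was 0.999. In this fit, which does not pair the replicates, an unadjusted p under 0.05 was reached by 181 gene models (1.53%), fewer than the 5% of a set without differences. With the replicate number as a block, 696 (5.89%) reached it, 415 fell and 140 rose, and the smallest adjusted p was 0.114. No gene passed the adjusted p in either fit, so the calls are a ranking and each may be a chance difference. The exact test of edgeR gave 2 genes at an adjusted p under 0.05 and DESeq2 gave 4, all lower. With 2 libraries against 2, no single gene can go below 0.333 in an exact permutation test.

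In all 139 lower genes both Neurog:WRPW libraries lay below both lacZ libraries, as in 1599 of all gene models (13.5%), and 1358 (11.5%) lay above. The LogFC of the 139 ran from -7.77 to -0.64 with a median of -1.43: 35 were beyond -2, 62 lay between -2 and -1, and 42 were closer to 0. The 36 higher genes had a median of 1.08, and 17 of them did not reach 1. The lower genes were of middling abundance and length. Their median level was 5.38 CPM in Neurog:WRPW and 15.9 CPM in lacZ, beside 16.8 CPM and 17.5 CPM over all gene models tested, and their median length was 2293 bases, beside 1874. Without TMM the median LogFC of all genes moved to -0.12, beside -0.01 with it, and 192 fell and 16 rose, while 2185 lay below and 818 above. With the size factors of DESeq2 in place of TMM, 132 fell and 40 rose. Single libraries mattered. The count of lower genes was 898 without Neurog:WRPW replicate 1 and 72 without lacZ replicate 1, and that of higher genes was 135 without Neurog:WRPW replicate 1. Of the 139 calls, 50 were lost without replicate 1 and 92 without replicate 2 of Neurog:WRPW, and 97 and 69 without replicates 1 and 2 of lacZ. Without those of *Neurog* > *Neurog*, which enter the spread and the scaling, 49 and 50 were lost. For the genes named below, the LogFC is given without each Neurog:WRPW or lacZ library whose absence ended the call. These fits do not pair the replicates either. The log2 ratio of replicate 1 to replicate 2 in Neurog:WRPW correlated with that in lacZ (r = 0.62). Leaving out lacZ replicate 1 sets both Neurog:WRPW libraries against lacZ replicate 2 alone. A difference shared by replicate number is therefore not taken out of these values.

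**Figure D1:**
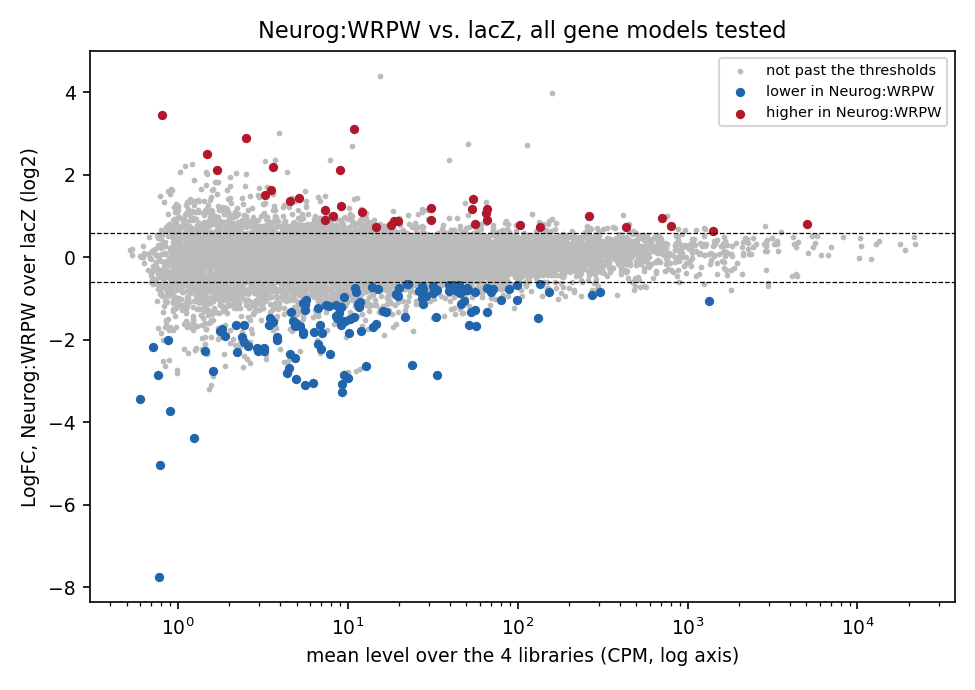
LogFC of Neurog:WRPW over lacZ (vertical axis, log2) against the mean level over the 4 libraries (horizontal axis, CPM, log scale) for 11822 gene models; the dashed lines mark LogFC of 0.6 and -0.6. The 139 lower genes (blue) reach -7.77, and the 36 higher genes (red) reach 3.46.

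Of the 139 lower genes, 18 passed in each of the 6 fits that left out 1 library. With the smallest p of all stood KH.L164.21, which the study tested in situ with unclear result, at 1.47 and 1.55 CPM in Neurog:WRPW, against 8.55 and 6.83 CPM in lacZ (LogFC -2.34, SE 0.30). KH.C12.124, seen in situ in other tissues, held 2 counts and 1 count in Neurog:WRPW, against 54 and 40 counts in lacZ, which puts Neurog:WRPW at 4.65% of lacZ by pooled counts (95% Clopper-Pearson interval 0.943% to 14.0%, from counting error only). KH.L119.20, which is expressed in BTNs, was at 12.1 and 11.2 CPM in Neurog:WRPW, against 31.5 and 32.0 CPM in lacZ (LogFC -1.45, SE 0.24). In these genes each group's libraries lay close together and the groups far apart. The next was *Kif26* (KH.C11.185), a kinesin-like protein of the kind that binds microtubules with little motor activity in mammals, at 7.42 and 5.76 CPM in Neurog:WRPW, against 25.5 and 17.6 CPM in lacZ (LogFC -1.70, SE 0.29). A gene model that the study's table names HRH1 (KH.C10.464), after a human histamine receptor, was at 8.69 and 9.86 CPM in Neurog:WRPW, against 23.9 and 21.9 CPM in lacZ (LogFC -1.31, SE 0.28). *Slc35g2* (KH.L141.43), of a family of nucleotide sugar transporter-like membrane proteins, was at 2.21 and 1.66 CPM in Neurog:WRPW, against 21.2 and 12.1 CPM in lacZ (LogFC -3.08, SE 0.74). It kept 11.6% of the lacZ mean, among the lowest shares of the named genes. *LF* (KH.C10.27), which encodes a neuropeptide precursor and was seen in BTNs, was lower too (LogFC -1.47, SE 0.35) and kept the call in each of these fits. *Basigin* (KH.C5.79), an immunoglobulin-domain membrane protein, *Brsk* (KH.C11.383), a kinase that in mice sets neuronal polarity, *Osbpl* (KH.C1.70), a lipid transfer protein, and *Nlrp-related* (KH.C9.81) also passed in every such fit, with LogFC of -1.86, -1.06, -1.03 and -1.80.

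**Figure D2:**
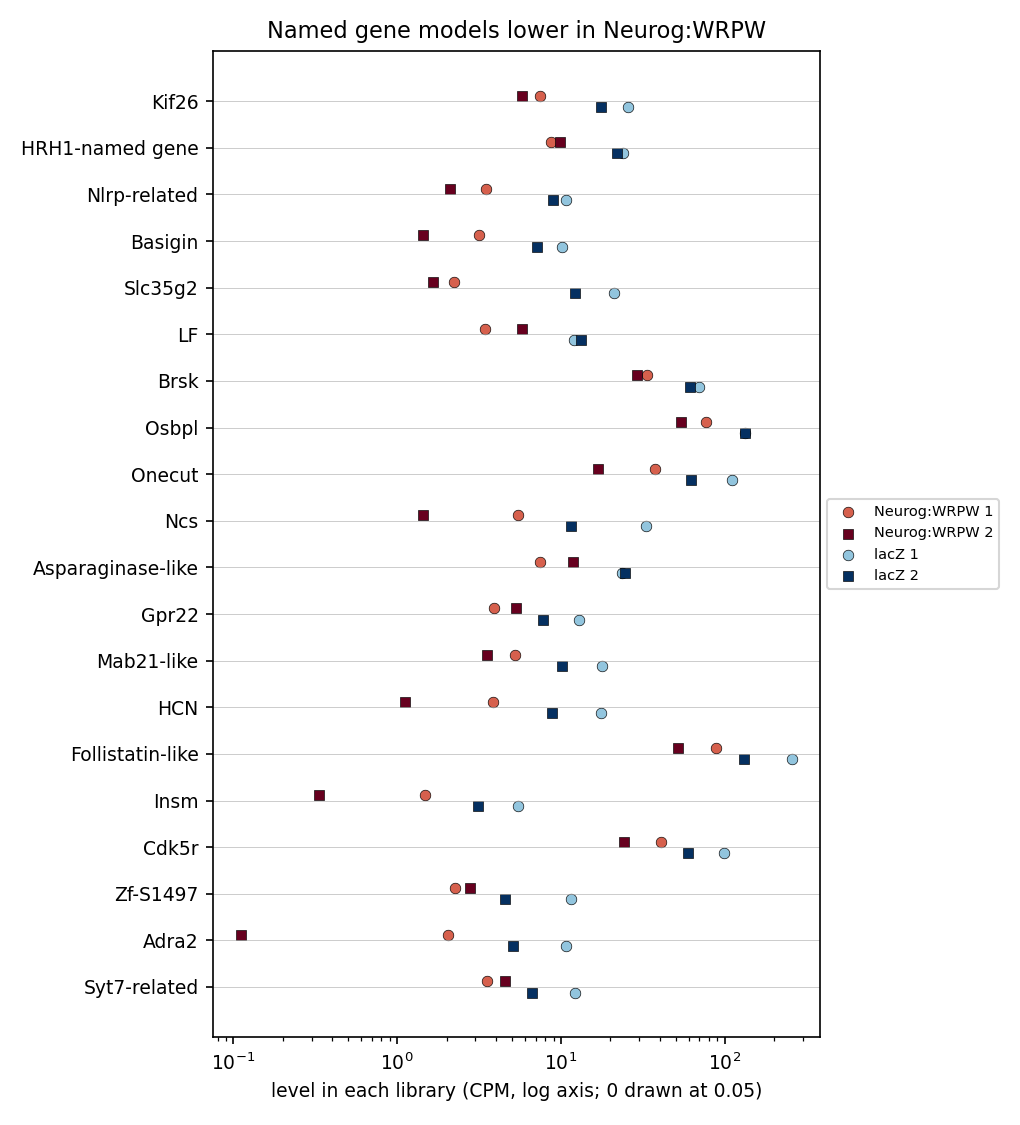
Level in each library (horizontal axis, CPM, log scale) of the 20 lower gene models with a gene name and the smallest p, with Neurog:WRPW in red and lacZ in blue, circles for replicate 1 and squares for replicate 2. In each gene both red points lie left of both blue points, and for Adra2 replicate 2 of Neurog:WRPW, at 0.111 CPM, lies far from replicate 1, at 2.05 CPM.

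The study's in situ genes were chosen as potential BTN markers with the results of these libraries in hand, so that their counts here are no independent evidence of a direction. The table used here holds 134 of them, slightly fewer than were probed, and the rest were not analysed here. Of its 48 genes seen in BTNs, all over the CPM minimum, 20 (41.7%) fell and none rose. Over all gene models tested 1.18% fell and 0.305% rose. Both Neurog:WRPW libraries lay below both lacZ libraries in 35 (72.9%), beside 13.5% of all gene models tested. The median LogFC was -1.34, beside -0.01 over all gene models tested. Of the genes of unclear result 14 of 26 tested fell, of those seen in other parts of the central nervous system 6 of 15, of those seen in other tissues 6 of 10, and of those without signal 7 of 23, with median LogFC between -1.42 and -0.98. In one gene of these groups, KH.C8.471 of the other tissues, the level rose. The BTN genes kept from 11.9% to 95.7% of the lacZ mean, with a median of 39.2%. The LogFC was under 0 in all 48. In bulk samples fewer cells of a type and less RNA per cell cannot be told apart. The count of 20 was 5 when lacZ replicate 1 was left out, 11 with replicate 1 of Neurog:WRPW alone and 28 with replicate 2 of Neurog:WRPW alone. Replicate order moved with it: 41 of the 48 were higher in replicate 1 than in replicate 2 of Neurog:WRPW, and 43 of 48 in lacZ, beside 51.8% and 50.7% of all gene models. With the replicate number as a block, 42 of the 48 were lower. Stress genes had the same order: of 5 in the list, 4 were higher in replicate 1 of Neurog:WRPW and 5 in replicate 1 of lacZ. Their median was at 424.2% of the lacZ mean in replicate 1 and 30.6% in replicate 2 of Neurog:WRPW, and the median ratio of lacZ replicate 1 to replicate 2 was 5.43. The levels summed over the 5 were 252.4 and 143.3 CPM in Neurog:WRPW, against 248.4 and 191.1 CPM in lacZ. None of the 5 passed the thresholds (median LogFC 1.21), and their part in the result was not tested.

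**Figure D3:**
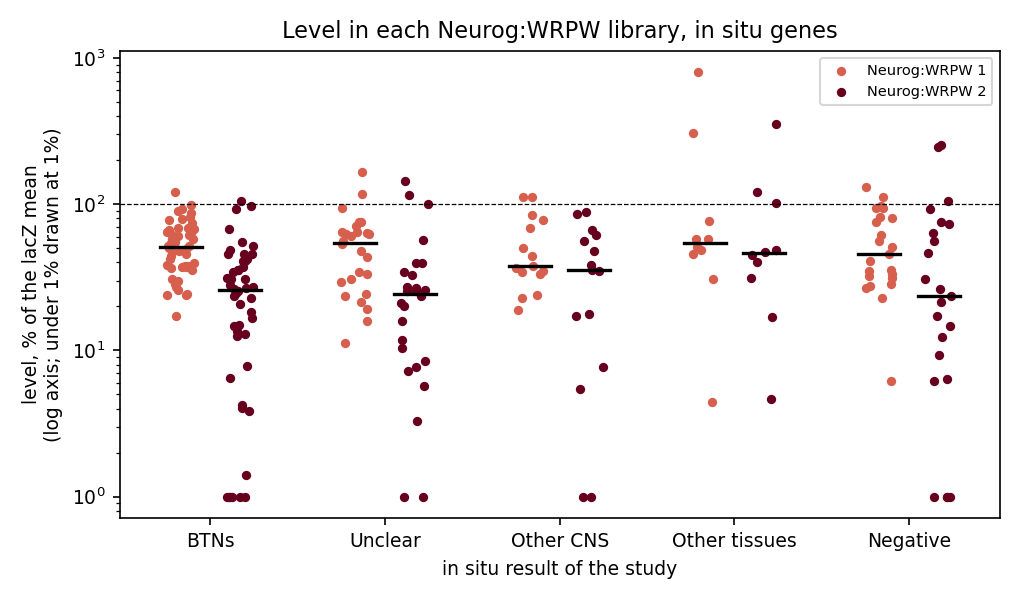
Level in each Neurog:WRPW library as a percentage of the lacZ mean (vertical axis, log scale, dashed line at 100%) for the tested genes of the study's in situ groups; black bars are medians. For genes seen in BTNs the medians are 50.9% in replicate 1 and 25.8% in replicate 2, and for those of other parts of the central nervous system 37.6% and 35.5%.

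A few BTN genes did not part the groups. KH.C6.138 was at 18.4 and 17.3 CPM in Neurog:WRPW, against 19.9 and 17.4 CPM in lacZ, and *Pde11-related* (KH.L18.65), a cyclic nucleotide phosphodiesterase, at 52.3 and 29.3 CPM, against 55.2 and 31.3 CPM. *Dhcr7* (KH.C2.506), an enzyme of the last steps of cholesterol synthesis in mammals, was at 40.8 and 54.4 CPM in Neurog:WRPW, against 42.6 and 60.1 CPM in lacZ. These 3 and *Sord* (KH.L105.1), at 89.2% of lacZ, were the only BTN genes above 80% of the lacZ mean. Near the other end stood *Adra2* (KH.C7.131), *Ncs* and *Anoctamin 7*, described next.

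Gene names used from here on are those of the study or of its human protein matches, listed for 1129 gene models of which 1050 were tested. Nearly all of these were listed for a rise in *Neurog* > *Neurog*, so they hold more neuronal genes than the genome does. Of the 1050, 72 (6.86%) fell and 5 rose, with a median LogFC of -0.23. Both Neurog:WRPW libraries lay below both lacZ libraries in 265 (25.2%) and above in 81. Lists by protein family can be read only beside those values. A gene enters a list if any of its human matches belongs to it.

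Transcription factors were among the lists with the most genes lower, with 6 of 19 (31.6%) and a median LogFC of -0.93. *Onecut* (KH.C6.185), a cut-homeodomain factor of neurons, was at 37.3 and 16.7 CPM in Neurog:WRPW, against 110.6 and 62.3 CPM in lacZ (LogFC -1.67, SE 0.46). *Insm* (KH.C4.378), a zinc finger repressor that in vertebrates drives neurons and endocrine cells out of the cycle, was at 1.47 and 0.332 CPM in Neurog:WRPW, the lower value from 3 counts, against 5.50 and 3.11 CPM in lacZ (LogFC -2.14, SE 0.66). *Bhlh-tun2* (KH.C4.649), whose closest human proteins are the NHLH factors of young neurons, was at 4.11 and 0.443 CPM in Neurog:WRPW, against 16.0 and 7.13 CPM in lacZ (LogFC -2.24, SE 0.82). In each of the 3 the lower Neurog:WRPW value came from replicate 2, and none passed without lacZ replicate 1 (LogFC -1.19, -1.67 and -1.54). A homeobox gene matched to HOXA3, HOXB3 and MNX1 (KH.L128.12), *Prop* (KH.C11.543) and *Prox.a* (KH.C4.500) were the other lower members of the list, with LogFC of -1.93, -2.46 and -3.10. Without lacZ replicate 2 their LogFC were -1.49, -1.73 and -2.95, and none passed. *Prop* did not pass either with a single Neurog:WRPW library (-2.40 with replicate 1, -2.53 with replicate 2), nor did *Prox.a* without lacZ replicate 1 (-3.24). *Prox.a* had 41 counts in replicate 1 and 0 in replicate 2 of Neurog:WRPW, so that its fitted value depends on the prior count. A homeobox gene that the list's symbols do not cover, matched to HMX1, HMX2 and HMX3 (KH.S563.4), also fell (LogFC -2.77, SE 0.92), at 12 counts and 1 count in Neurog:WRPW, against 70 and 41 counts in lacZ. It did not pass without lacZ replicate 1 (-2.10) or with only replicate 1 of Neurog:WRPW (-2.15). A bHLH gene matched to ATOH1, ATOH8 and NEUROD4 (KH.C9.872) showed no such gap, at 78.1 and 140.4 CPM in Neurog:WRPW, against 92.7 and 134.1 CPM in lacZ.

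Genes of microtubules and neuronal shape had 6 of 20 members lower (30.0%), with a median LogFC of -0.81. In 13 (65.0%) both Neurog:WRPW libraries lay below both lacZ libraries, beside 25.2% of all named genes. None of the 20 had a LogFC above 0. Beside *Kif26* and *Brsk*, the activator of Cdk5 kinase *Cdk5r* (KH.C4.760) was at 40.9 and 24.4 CPM in Neurog:WRPW, against 98.8 and 59.9 CPM in lacZ (LogFC -1.28, SE 0.40). *Dcx* (KH.C9.150), a doublecortin, which stabilises microtubules in migrating neurons, was at 24.2 and 11.4 CPM in Neurog:WRPW, against 68.1 and 29.4 CPM in lacZ (LogFC -1.45, SE 0.56). *alpha-Tubulin* (KH.C8.892), a subunit of the microtubule itself and by far the most abundant of the named lower genes, was at 1005 and 726.4 CPM in Neurog:WRPW, against 2251 and 1376 CPM in lacZ (LogFC -1.07, SE 0.40). *Stathmin2* (KH.L68.2), of a family that takes microtubules apart, was at 4.47 and 2.44 CPM in Neurog:WRPW, against 9.88 and 5.60 CPM in lacZ (LogFC -1.14, SE 0.47). The calls of *Cdk5r*, *Dcx*, *alpha-Tubulin* and *Stathmin2* were lost without lacZ replicate 1 (LogFC -0.86, -0.70, -0.65 and -0.67) and with only replicate 1 of Neurog:WRPW (-0.95, -1.01, -0.85 and -0.79). That of *alpha-Tubulin* was also lost with only replicate 2 (-1.32). *Saxo* (KH.C10.475), seen in BTNs, was at 4.32 and 0 CPM in Neurog:WRPW, against 15.3 and 8.01 CPM in lacZ, and did not pass (LogFC -2.31).

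Of 38 ion channel genes 4 fell (10.5%), with a median LogFC of -0.55. Besides *Asic* these were *HCN* (KH.C10.454), a channel opened by hyperpolarisation that paces firing, *Anoctamin 7* (KH.C8.585), of the TMEM16 family, and *Trpc* (KH.C7.587), a cation channel. *HCN* was at 3.84 and 1.11 CPM in Neurog:WRPW, against 17.5 and 8.76 CPM in lacZ (LogFC -2.34, SE 0.72). *Anoctamin 7* was at 9.79 and 3.21 CPM in Neurog:WRPW, against 62.2 and 19.7 CPM in lacZ (LogFC -2.62, SE 0.91). In both, lacZ replicate 1 was the higher lacZ library. Without it the LogFC of *HCN*, *Anoctamin 7* and *Trpc* were -1.74, -1.56 and -2.05, and with only replicate 1 of Neurog:WRPW they were -1.77, -2.06 and -1.67, none past the thresholds. *Trpc*, at no more than 7 counts in a Neurog:WRPW library, also lost the call without lacZ replicate 2 (-2.28). *UNC79* (KH.L135.1), a partner of the sodium leak channel NALCN in other animals, was at 50.2 and 24.8 CPM in Neurog:WRPW, against 116.3 and 71.8 CPM in lacZ (LogFC -1.32). It did not pass without lacZ replicate 1 (-0.92) or with only replicate 1 of Neurog:WRPW (-0.90). The *NALCN* gene model (KH.C3.445) itself was at 3.79 and 4.21 CPM, against 6.39 and 2.63 CPM, and its groups overlapped. The receptor subunits *Gabrb* (KH.C9.860) and *Gabrd* (KH.C1.1254), of the family of GABA and glycine receptors, lay below lacZ in both libraries without passing (LogFC -2.38 and -1.32).

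Receptors that act through G proteins had 4 of 44 members lower (9.09%), with a median LogFC of -0.33. The lower gene model named HRH1, described above, has no human match in the table and is not counted among the 44. The 4 were *Gpr22* (KH.L139.24), *Adra2* (KH.C7.131), related to adrenergic and dopamine receptors, *Cxcr4-related* (KH.C6.184) and the tachykinin receptor relative *Tacr* (KH.L7.11). *Gpr22* was at 3.90 and 5.32 CPM in Neurog:WRPW, against 12.8 and 7.75 CPM in lacZ (LogFC -1.17, SE 0.36), while *Adra2* was at 2.05 and 0.111 CPM, against 10.7 and 5.12 CPM (LogFC -2.68, SE 0.85). Replicate 2 was the higher Neurog:WRPW library for *Gpr22* and by far the lower for *Adra2*, where it held 1 count. Without lacZ replicate 1 the LogFC of *Gpr22*, *Adra2*, *Cxcr4-related* and *Tacr* were -0.74, -2.06, -1.75 and -1.15, and none passed. With only replicate 2 of Neurog:WRPW those of *Gpr22*, *Cxcr4-related* and *Tacr* were -0.95, -1.59 and -1.54 and did not pass, nor did *Tacr* with only replicate 1 (-2.07). Of 18 genes of G protein signalling 2 fell, the G protein subunit *Gng* (KH.L170.96) with a LogFC of -1.62 (-1.15 without lacZ replicate 1 and -1.06 with only replicate 1 of Neurog:WRPW, neither past the thresholds) and an adenylate cyclase (KH.C14.320) with a LogFC of -0.81, a call that was lost when any 1 of the 4 libraries was left out (-0.94 to -0.70).

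Of 30 genes of vesicles, release and calcium sensing 2 fell (6.67%), a share close to the 6.86% of all named genes. *Ncs* (KH.C1.1067), a neuronal calcium sensor, was at 5.42 and 1.44 CPM in Neurog:WRPW, against 33.0 and 11.6 CPM in lacZ (LogFC -2.64, SE 0.76, and -1.68 without lacZ replicate 1, where it did not pass). *Syt7-related* (KH.C4.304), a synaptotagmin, was at 3.53 and 4.54 CPM in Neurog:WRPW, against 12.2 and 6.65 CPM in lacZ (LogFC -1.23, SE 0.40). It did not pass without lacZ replicate 1 (-0.71) or with only replicate 2 of Neurog:WRPW (-1.05). The LogFC was under 0 in 27 of the 30, with a median of -0.50. Some abundant members lay near lacZ. A synaptotagmin matched to SYT1, SYT2 and SYT5 (KH.C2.101) was at 341.5 and 258.2 CPM in Neurog:WRPW, against 361.8 and 280.3 CPM in lacZ, and a synaptobrevin (KH.C1.165) at 182.4 and 210.2 CPM, against 232.9 and 201.5 CPM. The transmitter enzyme *GAD* (KH.S761.6), which makes GABA, was at 33.4 and 14.1 CPM in Neurog:WRPW, against 92.3 and 31.0 CPM in lacZ. Its LogFC was -1.37 (SE 0.89), and it did not pass. The groups overlapped, since Neurog:WRPW replicate 1 lay above lacZ replicate 2. Between libraries of the same replicate number, Neurog:WRPW was the lower in each.

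On the cell surface, 5 of 31 genes of guidance and adhesion fell (16.1%), with a median LogFC of -0.45. *Follistatin-like* (KH.C12.301), a secreted protein, was at 88.2 and 52.0 CPM in Neurog:WRPW, against 258.4 and 130.1 CPM in lacZ (LogFC -1.47, SE 0.45). *Sema6* (KH.C4.719), a transmembrane semaphorin that guides axons and migrating neurons, was at 39.4 and 10.8 CPM in Neurog:WRPW, against 99.5 and 57.8 CPM in lacZ (LogFC -1.64, SE 0.61). *Mdga* (KH.C3.474), a cell surface protein that in mammals limits synapse formation, was at 2.69 and 0.554 CPM in Neurog:WRPW, against 24.6 and 9.32 CPM in lacZ (LogFC -3.28, SE 1.13). At 9.55% of lacZ it had one of the smallest shares. Without lacZ replicate 1 the LogFC of these 3 were -0.88, -1.18 and -2.41, and with only replicate 1 of Neurog:WRPW they were -1.14, -0.99 and -2.65, and none passed in either. An Eph receptor (KH.C1.404) and *Igsf9-related.b* (KH.C3.806) fell with LogFC of -0.87 and -1.35, and lost the call without lacZ replicate 2 (-0.95 and -0.79). The Eph receptor also lost it without lacZ replicate 1 (-0.77) and with only replicate 1 of Neurog:WRPW (-0.52), and *Igsf9-related.b* with only replicate 2 (-0.83). A hedgehog ligand gene (KH.C8.359, matched to DHH, IHH and SHH) was at 0.684 and 1.33 CPM in Neurog:WRPW, against 4.11 and 3.37 CPM in lacZ (LogFC -1.93, SE 0.59). It did not pass without lacZ replicate 1 (-1.76) or with only replicate 2 of Neurog:WRPW (-1.49).

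Of 41 solute carriers 4 had both Neurog:WRPW libraries above both lacZ libraries, beside 81 of the 1050 named genes and 11.5% of all tested. Another 4 fell (9.76%). After *Slc35g2* these were *Slc24a* (KH.L50.5), a potassium-dependent sodium/calcium exchanger, a monocarboxylate transporter relative (KH.C9.103) and *Slc6a11/12/13* (KH.L167.5), of the GABA transporter family. *Slc6a11/12/13* was at 98.2 and 120.7 CPM in Neurog:WRPW, against 146.0 and 243.4 CPM in lacZ (LogFC -0.83, SE 0.33). It did not pass without lacZ replicate 2 (-0.42) or with a single Neurog:WRPW library (-0.99 and -0.69). *Slc24a* was at 39.9 and 20.7 CPM, against 94.7 and 58.6 CPM (LogFC -1.33, SE 0.55), and did not pass without lacZ replicate 1 (-0.93) or with only replicate 1 of Neurog:WRPW (-0.94). The monocarboxylate transporter relative had a LogFC of -0.86 and lost the call when any 1 of the 4 libraries was left out (-0.97 to -0.73). RNA-binding proteins of neurons were few in the named set, with 4 members. All lay below lacZ in both libraries, as did 25.2% of all named genes. *Rbpms* (KH.L71.1) and a NOVA relative (KH.C11.540) passed with LogFC of -1.78 and -0.84 (-1.12 and -0.40 without lacZ replicate 1, -1.25 and -0.78 with only replicate 1 of Neurog:WRPW, none past the thresholds, nor the NOVA relative with only replicate 2, -0.91), while the splicing factor *Srrm* (KH.C1.118) and a CELF relative (KH.C6.128) had LogFC of -1.05 and -0.60. No member of the Notch list (8 genes), of the FGF and ERK list (5 genes) or of the phototransduction list (5 genes) passed the thresholds in either direction, with median LogFC of -0.44, -0.49 and -0.29. The lists for muscle, proliferation, ribosomal proteins and respiration held at most 5 named genes each, so that other cell types could hardly be read from them.

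Genes without a name made up 67 of the 139 that fell, where only 1050 of the 11822 gene models tested had a name. KH.C3.281 was at 5.48 and 6.09 CPM in Neurog:WRPW, against 17.3 and 14.4 CPM in lacZ (LogFC -1.46). KH.C3.773 was the 1 tested gene model with 0 counts in both Neurog:WRPW libraries, against 17 and 49 counts in lacZ, which makes it at least 14.4-fold lower if 3 counts are allowed for the group of both Neurog:WRPW libraries. Its fitted LogFC, the lowest of all, depends on the prior count. Both passed in every fit that left out 1 library.

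Of the 36 higher genes 31 had no name in the study's tables, which name only 1050 of the 11822 gene models tested. None of the 36 passed in each of the 6 fits that left out 1 library. With the smallest p, KH.L168.1 was at 81.4 and 90.5 CPM in Neurog:WRPW, against 47.6 and 43.5 CPM in lacZ (LogFC 0.92, a call lost without lacZ replicate 2). The most abundant, KH.C3.781, was at 7001 and 5840 CPM in Neurog:WRPW, against 3782 and 3593 CPM in lacZ (LogFC 0.80). Its groups did not overlap, yet the call was lost when any 1 of the 4 libraries was left out (0.66 to 0.93). Matched to the peroxiredoxins PRDX1, PRDX2 and PRDX6, which break down peroxides, KH.C9.722 was at 1.53 and 1.44 CPM in Neurog:WRPW, against 0.222 and 0.0438 CPM in lacZ (LogFC 3.46, SE 1.15, and 2.70 without lacZ replicate 2, where it did not pass). The CILP2 and mucin relative KH.L141.42, of secreted proteins of matrix and mucus, was at 2.69 and 9.20 CPM in Neurog:WRPW, against 1.17 and 1.40 CPM in lacZ (LogFC 2.19, SE 0.69). It did not pass with only replicate 1 of Neurog:WRPW (1.06) or with a single lacZ library (2.08 and 2.33). KH.C8.471, seen in situ in other tissues, was at 3.53 and 1.55 CPM in Neurog:WRPW, against 0.222 and 0.657 CPM in lacZ (LogFC 2.51, SE 0.92), and did not pass with only replicate 2 of Neurog:WRPW (1.78) or without lacZ replicate 1 (1.97). None of the 20 members of the microtubule list and none of the 48 BTN genes rose. Over all gene models tested 0.305% rose, so that none is a likely count in lists this short.

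Each Neurog:WRPW library was then read on its own, against both lacZ libraries. The single library is assumed in such a fit to vary like the other groups. Both readings share the lacZ libraries, and how many calls they would share by chance was not computed. Their agreement was therefore not tested. Replicate 1 alone gave 178 lower and 41 higher genes, and replicate 2 alone 898 and 135. In both readings 34 gene models were lower and 2 higher, while 1 was higher in replicate 1 and lower in replicate 2 and 3 the other way round. Of the 139 genes lower with both libraries, 33 passed in each library alone, 47 in replicate 1, 89 in replicate 2 and 36 in neither. Their median LogFC was -1.18 in replicate 1 and -1.59 in replicate 2, and 100 of the 139 (71.9%) were lower in replicate 2 than in replicate 1, beside 51.8% of all gene models. Replicate 2 thus held less of these genes than replicate 1.

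**Figure D4:**
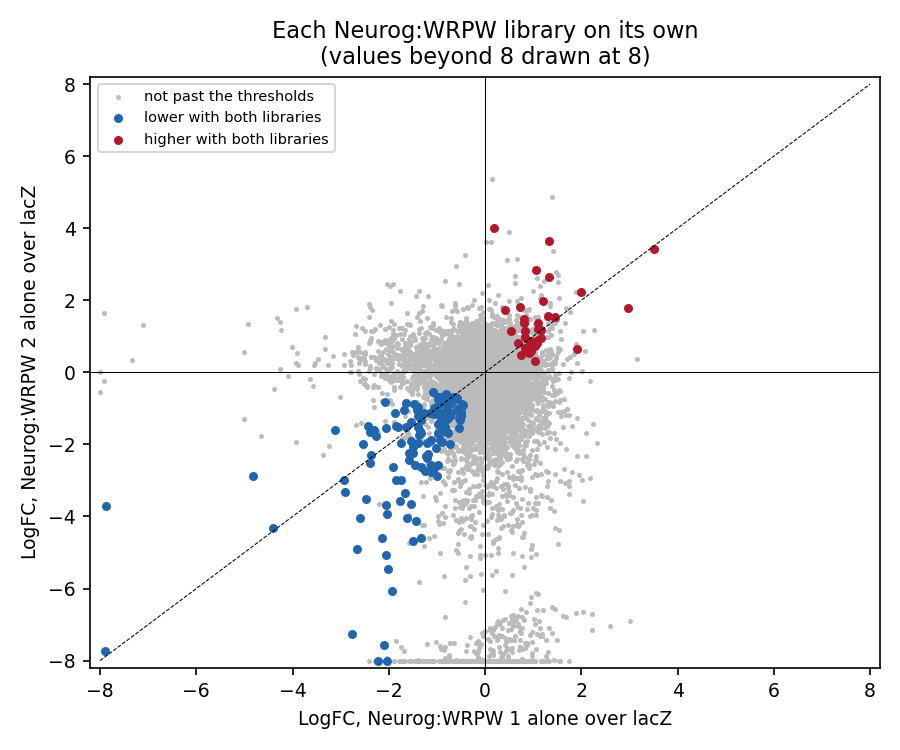
LogFC of Neurog:WRPW replicate 2 alone (vertical axis, log2) against that of replicate 1 alone (horizontal axis), each over both lacZ libraries, for 11822 gene models, with values beyond 8 drawn at 8 and the dashed line at equality. Of the 139 lower genes (blue) 100 were lower in replicate 2 than in replicate 1, and the points at the lower edge have fitted values of -8 or lower in replicate 2.

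Replicate 2 of Neurog:WRPW nearly lacked some genes that replicate 1 held. Of 8441 gene models over 5 CPM in both lacZ libraries, 26 had 3 counts or fewer in Neurog:WRPW replicate 2, 13 of them 0, and none had so few in replicate 1, which was the deeper library and came from more cells. Of the 26, 14 had neither a name nor a human match. Neither was held by 6 of the 10 gene models over a mean of 8 CPM with the largest deficit in replicate 2. Names and matches were listed for no more than 1050 of the 11822 gene models tested. In each of the 10 with the largest deficit lacZ replicate 1 was also the higher lacZ library. KH.C14.8 was at 147.6 and 1.995 CPM in Neurog:WRPW, against 166.0 and 1.839 CPM in lacZ. The genes described next are among the 12 of the 26 with a name or match. A gene matched to EBF1, EBF2 and EBF3 (KH.L24.10), the Ebf factors of neuronal differentiation, held 401 counts in replicate 1 (21.1 CPM) and 3 in replicate 2 (0.332 CPM) of Neurog:WRPW, against 44.0 and 31.5 CPM in lacZ. A FURIN, PCSK1 and PCSK2 relative (KH.L128.2), of the proteases that cut hormone and neuropeptide precursors, was at 5.79 and 0.111 CPM in Neurog:WRPW, against 28.7 and 13.0 CPM in lacZ. The match to FGF12, FGF13 and FGF14 (KH.L28.8), in mammals intracellular partners of sodium channels, was at 4.74 and 0 CPM in Neurog:WRPW, against 27.3 and 8.06 CPM in lacZ. Each of these lay below both lacZ libraries in both Neurog:WRPW libraries and yet did not pass with both, and their 2 Neurog:WRPW values lay far apart. A gene matched to CHAT, CPT2 and CRAT (KH.C1.498), choline and carnitine acyltransferases, was at 16.2 and 0 CPM, against 29.9 and 5.91 CPM, so that replicate 1 lay between the lacZ libraries. A bile acid carrier relative (KH.C14.431, matched to SLC10A1, SLC10A2 and SLC10A4) was at 16.8 and 0.111 CPM, against 39.9 and 16.6 CPM. For a count of 0 in replicate 2 the depth allows up to 3 counts, or 0.332 CPM, a limit that covers the counting of reads and not the sampling of few cells.

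In the other direction, replicate 2 held far more of 2 genes related to enzymes of retinoic acid. A gene matched to ALDH1A2, ALDH1A3 and ALDH2 (KH.C4.697), the kind of dehydrogenase that makes retinoic acid, was at 29.7 and 362.8 CPM in the Neurog:WRPW libraries, against 50.6 and 8.32 CPM in the lacZ libraries. A gene matched to CYP26A1, CYP26B1 and CYP26C1 (KH.C8.738), the cytochrome P450 that degrades it, was at 9.53 and 122.5 CPM in Neurog:WRPW, against 12.2 and 13.3 CPM in lacZ. Replicate 1 was thus within or just under the lacZ values and replicate 2 far above them. With replicate 2 alone both passed as higher (LogFC 3.62 and 3.26), with replicate 1 alone neither did (LogFC 0.01 and -0.42), and with both neither did (LogFC 2.74, SE 1.26, and 2.37, SE 1.02). These 2 were among the 10 gene models over a mean of 8 CPM with the largest excess in replicate 2. The order of the lacZ replicates was mixed among the 10. KH.C2.954 was at 1.0 and 45.8 CPM in Neurog:WRPW, against 0.333 and 25.8 CPM in lacZ. KH.L87.21 was at 1.53 and 57.3 CPM, against 2.72 and 0.0876 CPM.

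**Figure D5:**
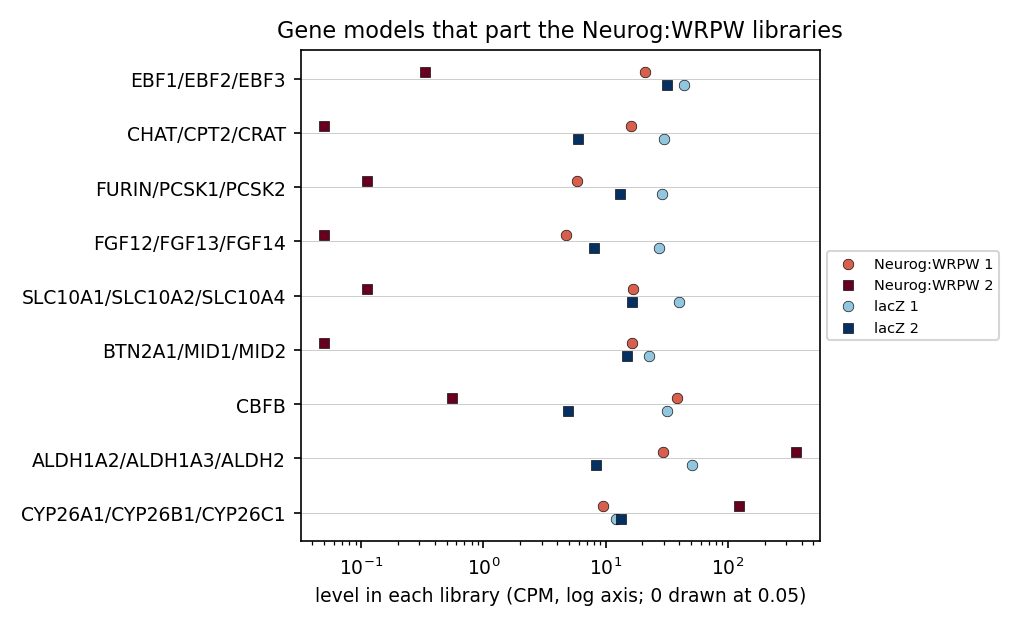
Level in each library (horizontal axis, CPM, log scale, 0 drawn at 0.05) of gene models with a human match that differ widely between the Neurog:WRPW libraries, given by their human matches, with Neurog:WRPW in red and lacZ in blue, circles for replicate 1 and squares for replicate 2. Replicate 2 of Neurog:WRPW lies at 0.332 CPM for EBF1/EBF2/EBF3, against 21.1 CPM in replicate 1, and at 362.8 CPM for ALDH1A2/ALDH1A3/ALDH2, against 29.7 CPM.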

How the data were processed

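The 6 libraries were made from total RNA of sorted cells with an ultra-low-input SMART-Seq kit. The authors deposited raw counts per KH gene model, made with STAR 2.5.2b and featureCounts per the submitters' processing notes, with duplicate reads removed and replicates not pooled. No source used here gives the assembly version or the strand setting, and without strand a gene cannot be told from an overlapping or antisense one. The table pairs no names with its identifiers: names come from the study's supplementary tables and text.

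Groups came from the sample titles. Gene models over 1 CPM in at least 2 of the 4 Neurog:WRPW and lacZ libraries were kept, scaled by TMM and fitted with all 6 libraries in 1 model of 3 groups by the two-sided quasi-likelihood test of edgeR 4.0.16 in R 4.3.3, with Benjamini-Hochberg adjustment over 11822 gene models. DESeq2 1.42.0 was an alternative. CPM are on TMM-scaled library sizes. The fit gave a biological coefficient of variation of 0.41, and the median SE of a LogFC was 0.41. The study calls the replicates biologically independent. The procedure was tested on simulated counts. Counts are reads without molecular identifiers, so intervals and floors cover counting error only.

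Members and lists were chosen with earlier results of these data known. Genes named are Neurog and those of the study's text, the genes with the smallest p or largest fold among those called, the 4 members of each list with the smallest p, and the 10 genes in each direction that differ most between the Neurog:WRPW libraries. Others, such as the EBF, FURIN, FGF12, HMX, NALCN, ATOH1, SYT1 and synaptobrevin matches, the BTN genes near lacZ and the remaining called members of lists, were chosen after their values were seen.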

Additional observations from a re-analysis of the deposited data

How the results depend on the processing

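Of 108 named genes recomputed, none changed direction past the thresholds under any alternative. Of the 72 among them that were called, 43 passed under every alternative that left out no library and kept the gene. The number of genes lower was 139 and stayed between 97 and 193 under other scalings, filters, tests, thinning to the smallest total and a fit of the 4 libraries only. Leaving out 1 library gave 72 to 898 lower genes, 30 to 135 higher genes and 5 to 28 lower BTN genes, and 0 genes at an adjusted p under 0.05 in each case. The number of higher genes, 36, was 16 on total counts without TMM, a setting chosen after seeing the data, 23 with a filter of over 5 CPM and 37 to 53 under the other scalings, filters and tests, thinning and the fit of the 4 libraries, with 53 from DESeq2. Genes at an adjusted p under 0.05 were 2 with the exact test and 4 with DESeq2. Gene models with both Neurog:WRPW libraries above both lacZ libraries were 1358 with TMM and 1402 with the size factors of DESeq2. They were 818 on total counts and 826 after thinning, which was also read on total counts without TMM.

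The labels do not say that a replicate number marks a shared batch. Over 7973 genes the log2 ratio of replicate 1 to replicate 2 in Neurog:WRPW correlated with that in lacZ (r = 0.62), as did those of Neurog:WRPW and *Neurog* > *Neurog* (0.55) and of *Neurog* > *Neurog* and lacZ (0.57), so that values with the block stand beside the main counts. With it as a replicate block, 415 genes were lower, 140 higher and 42 of the 48 BTN genes lower, with 0 genes at an adjusted p under 0.05, where 696 had an unadjusted p under 0.05.

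With 2 libraries per group, and replicate 2 of Neurog:WRPW the shallowest and of the fewest cells, differences in low genes were often not detectable at this depth.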
